A study of Homo sapiens with 4 samples.

Results

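The genes examined are 7 components of the Hedgehog pathway: the receptor PTCH1, its partner SMO, the co-receptor GAS1, the inhibitor SUFU and the transcription factors GLI1, GLI2 and GLI3. They were taken by symbol from a table of 60725 genes, in which all 7 were found, and 6 of them had enough reads to be tested. RNA-seq was performed on RPE1 SunTag cells, an hTERT-immortalized retinal pigment epithelial line that expresses the SunTag protein-tagging system. Control cells (genotype label "control", titled scramble) received 10 nM of Silencer Select Negative Control No. 2 siRNA, and TOP2B knockdown cells received 10 nM of the ON-TARGETplus SMARTpool against TOP2B, which encodes a DNA topoisomerase. In either group a second transfection followed after 48 h and RNA was taken 72 h later, on day 5, in 2 independent biological replicates. Each group thus stands for 1 siRNA reagent in 1 cell line, and loss of TOP2B and any other effect of either siRNA cannot be told apart.

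In the Hedgehog pathway, PTCH1 keeps SMO inactive until a ligand (SHH, IHH or DHH) binds PTCH1 together with co-receptors such as GAS1, CDON and BOC. Active SMO gathers in the primary cilium and frees the GLI proteins from SUFU. Without a signal, GLI3 and in part GLI2 are cut to repressors after phosphorylation and recognition by the ubiquitin ligase adaptor BTRC, while GLI1 acts only as an activator. GLI1, PTCH1 and HHIP are the classical target genes, and RPE1 cells are widely used to study this ciliary pathway.

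Target genes of GLI factors are recognized by the 9-base motif TGGGTGGTC, or GACCACCCA on the other strand. RefSeq promoter windows of GRCh38.p14, from 250 bases before to 50 after a start site, were matched for 5 of the 7 members (not GLI1 and GLI3) and held 10 windows. The motif was found in 1 of them, among the 5 windows of PTCH1, on the gene's minus strand, starting at -172 relative to the start site of that window. The stretch printed below lies at chr9:95509420-95509448, inside the gene, which runs from 95442980 to 95517057. This stretch is shown because it holds the GLI motif of the pathway's own receptor gene, with the motif in capitals.

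PTCH1 promoter: gttgcctaccTGGGTGGTCtctctacttt

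Over all 35116 windows of the same length, 83 (0.236%) held this motif on either strand. The match is a description of the sequence and no measurement of binding.

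A second set of sequences concerns the 6-base word GCAACC in 3′ UTRs, a word picked for its link to the fold changes of these same libraries, so that its shares are a description. Over tested genes whose 3′ UTR had 50 bases or more, 39.3% of 936 genes called higher held it, against 19.8% of 606 called lower and 22.5% of 10843 not called. In the GENCODE canonical transcripts, GLI3 held 2 copies, which 6.6% of the 12385 tested genes matched or exceeded. GLI2 and SUFU held 1 each, and the remaining 4 members none. None of these shares was matched for 3′ UTR length, which is 3381 bases in GLI3, and a longer 3′ UTR has more room for the word. Of the 3 members with the word, only GLI3 was called, and the part of the word in its change was not tested. The sites are shown on the transcript strand with the word in capitals. They lie in GRCh38 at chr7:41964293-41964322 and chr7:41962125-41962154 (minus strand, GLI3), chr2:120992067-120992096 (plus strand, GLI2) and chr10:102632211-102632240 (plus strand, SUFU), in the order given.

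GLI3 first site: gaaaaaaagactGCAACCaacggaaatcaa
GLI3 second site: gtattctcggatGCAACCtccatttctcag
GLI2 site: ggggaatgtgtgGCAACCttgccaaacagc
SUFU site: agcacctggtcaGCAACCtgccccagacct

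The libraries held between 20310259 and 23887013 counted reads, so that 1 CPM (counts scaled to a common library size by the TMM method) stood for between 20.2 and 23.98 reads. TOP2B itself had 154.7 and 143.4 CPM in control and 15.3 and 13.3 CPM in knockdown replicates (log2 fold change -3.38, adjusted p = 5.1e-06, edgeR's quasi-likelihood test). Of 6 markers of the line, KRT8, KRT18, KRT7, VIM, MITF and OTX2, all were detected. None was called, where 10.8% of all tested genes were. For 5 of the 6 the groups did not overlap in CPM, a separation seen for 54.3% of all tested genes. The log2 fold changes were -0.35 for KRT8, -0.39 for KRT18, 0.65 for KRT7, -0.03 for VIM, 0.19 for MITF and 0.16 for OTX2. Of 6 markers of mature pigmented epithelium, RPE65, TYR and TTR were at 0 in every library and the list summed to at most 2.22 CPM. Markers of blood, endothelium, neurons, glia, liver and heart summed to between 0.842 and 1.40 CPM over 8 genes. By contrast, 10 of 15 proliferation genes were called higher (66.7%, beside 6.66% of all tested genes), none lower, and 5 were not called. The called genes were MCM2 to MCM7, PCNA, TYMS, RRM2 and CDK1. Those not called were MKI67, CCNA2, CCNB1, BUB1 and AURKA, with log2 fold changes of 0.58, 0.32, 0.13, 0.12 and 0.04. The sum of all 15, called or not, rose from 2176 to 2263 CPM in control to 3124 to 3350 CPM in knockdown libraries. Whether cell proliferation had a part in the changes below was not tested. In bulk RNA a change in the number of cells that express a gene and a change in RNA per cell cannot be told apart.

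**Figure D1:**
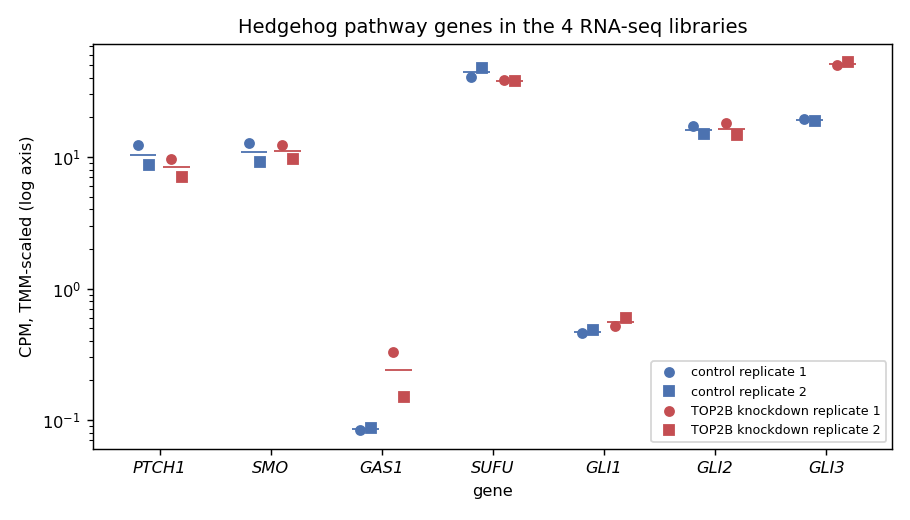
Levels of the 7 Hedgehog pathway genes in CPM on a log axis, with circles for replicate 1, squares for replicate 2, blue for control, red for TOP2B knockdown and lines for group means (n = 2). GLI3 lies near 19 CPM in control and above 50 CPM in knockdown libraries, whereas the points of PTCH1, SMO and GLI2 overlap between the groups.

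The transcription factor GLI3, the main repressor of the pathway, was the only one of the 6 tested members that was called. It rose 2.67-fold after TOP2B knockdown, and neither of the other GLI genes was called. At an adjusted p below 0.05, 1 of the 6 tested members (16.7%) was called, while 10.8% of all 15356 tested genes were called, 6.66% higher and 4.18% lower, so that 1 member among 6 is close to the background. The median log2 fold change of the 6 members was 0.017, against -0.0029 for all tested genes.

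GLI3 (ENSG00000106571, chromosome 7 from 41960949 to 42264100 on the minus strand) was measured at 19.6 and 18.8 CPM in control and at 50.3 and 52.5 CPM in knockdown replicates. In counts these were 470, 430, 1067 and 1059 reads. The replicates lay close together and the groups did not overlap. The means were 19.2 ± 0.54 and 51.4 ± 1.53 CPM (SD, n = 2), and the log2 fold change was 1.42 (standard error 0.12, 95% interval 1.15 to 1.69, adjusted p = 0.00048, edgeR's quasi-likelihood test). The fold change of GLI3 was larger than that of 99.1% of all tested genes. In fits without any one library it stayed between 1.40 and 1.45. In GENCODE v44, no exon base of GLI3 is shared with another gene. The older annotation used for counting was not examined. GLI3 is also the longest of the members, with a gene body of 303152 bases, followed by GLI2 with 257031 bases. Whether gene length had a part in the change was not tested.

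GLI2 (ENSG00000074047, chromosome 2 from 120735623 to 120992653), the chief activator among the GLI proteins, had 17.3 and 14.9 CPM in control and 18.1 and 14.7 CPM in knockdown replicates. The groups overlapped, with each knockdown value just outside the control range on opposite sides. The log2 fold change was 0.03 (95% interval -0.33 to 0.39, adjusted p = 0.934, edgeR), and its sign turned without control replicate 2 (-0.068) or without knockdown replicate 1 (-0.126). An increase of the size measured for GLI3 lies outside this interval.

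GLI1 (ENSG00000111087, chromosome 12 from 57459785 to 57472268), an activator whose own transcription serves as a readout of pathway activity, was barely detected. It had 11 reads in each control library and 11 and 12 reads in the knockdown libraries, or 0.459, 0.482, 0.518 and 0.594 CPM. Only 3.82% of tested genes had a lower control level. The log2 fold change was 0.24 with a wide 95% interval of -0.75 to 1.23 (adjusted p = 0.784, edgeR), so that only a larger change would have been detectable at this depth.

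**Figure D2:**
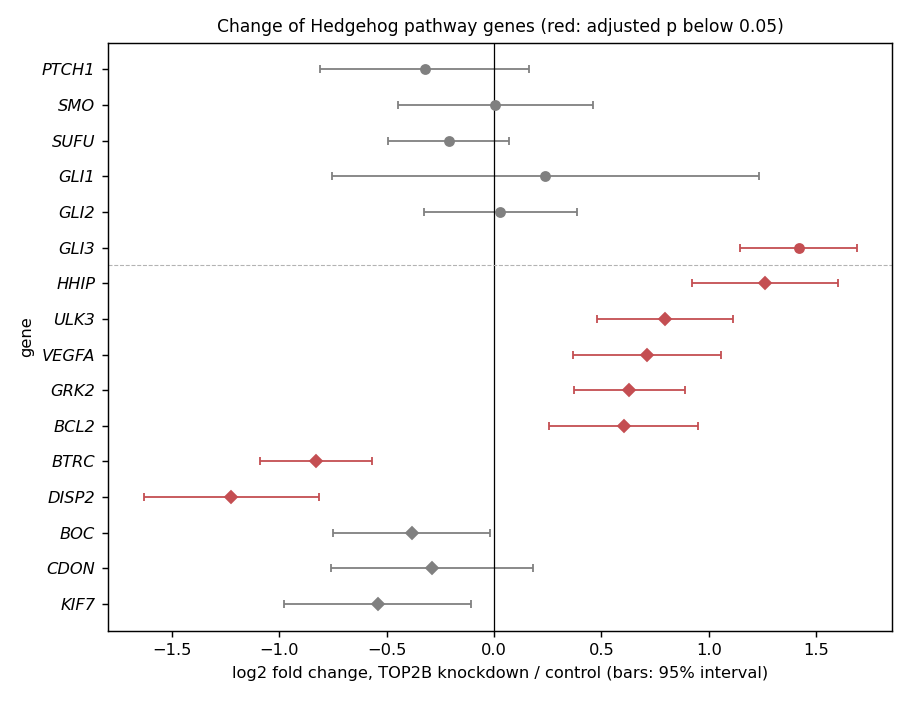
Log2 fold change of TOP2B knockdown over control (x axis) with 95% intervals that are not adjusted for the number of genes, for the 6 tested members (circles, above the dashed line) and for 10 other pathway genes (diamonds), with called genes in red. GLI3 at 1.42 stands apart from the other members, whose intervals include 0.

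Of the proteins that receive the signal, neither PTCH1 nor SMO was called in the main fit. PTCH1 (ENSG00000185920, chromosome 9 from 95442980 to 95517057 on the minus strand), receptor and target gene at once, had 12.3 and 8.63 CPM in control and 9.61 and 7.08 CPM in knockdown replicates. The value of knockdown replicate 1 lay between those of the control libraries. In both same-numbered pairs the knockdown library was the lower one. With replicate number as a term, a fit that was not used, PTCH1 was called (adjusted p = 0.0295, edgeR). Its log2 fold change was -0.32 (standard error 0.22, 95% interval -0.81 to 0.16, adjusted p = 0.39, edgeR), and it ranged from -0.56 to -0.048 when single libraries were left out, with the smallest size without control replicate 1.

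SMO (ENSG00000128602, chromosome 7 from 129188633 to 129213545), the membrane protein that PTCH1 holds inactive, had 12.8 and 9.16 CPM in control and 12.4 and 9.61 CPM in knockdown replicates. Both knockdown values lay inside the control range. The log2 fold change was 0.0057 (95% interval -0.45 to 0.46, adjusted p = 0.99, edgeR), and its sign depended on the scaling and on single libraries. For PTCH1, SMO and GLI2, replicate 1 was higher than replicate 2 in both groups, by 0.50 and 0.44 on the log2 scale for PTCH1 and by 0.48 and 0.37 for SMO.

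The co-receptor GAS1 (ENSG00000180447, chromosome 9 from 86944362 to 86947506 on the minus strand) was covered by 2 and 2 reads in control and 7 and 3 reads in knockdown libraries, below the limit of 10 reads in 2 libraries. The ratio of knockdown to control reads, scaled for library size, was 2.83, with an exact 95% interval for counting error alone of 0.815 to 12.3, which includes no change.

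SUFU (ENSG00000107882, chromosome 10 from 102503972 to 102633535), the cytoplasmic protein that binds and restrains GLI factors, was the most abundant member per transcript length. It had 40.8 and 47.5 CPM in control and 38.3 and 37.9 CPM in knockdown replicates. Both knockdown values lay below both control values, but by less than the distance between the control replicates. The log2 fold change was -0.21 (standard error 0.13, 95% interval -0.49 to 0.069, adjusted p = 0.324, edgeR), and it ranged from -0.32 to -0.092 when single libraries were left out. SUFU, GLI1 and GLI3 were the 3 of 6 members without overlap between the groups in CPM, a separation seen for 54.3% of all tested genes.

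**Figure D3:**
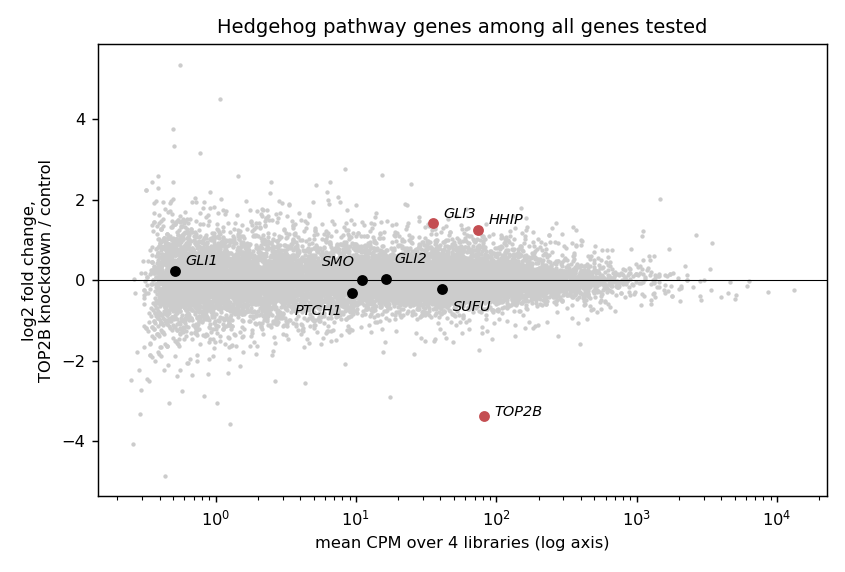
Each grey point is 1 of the 15356 tested genes, with its mean CPM over 4 libraries on the log x axis and its log2 fold change on the y axis; marked genes are red where called and black where not. GLI3 and HHIP lie near the upper edge of the cloud at their level, TOP2B far below it, and the other 5 tested members within it.

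Levels of different genes were compared per kilobase of the canonical transcript. In control cells the order was SUFU with 8.80 ± 0.94, SMO with 2.76 ± 0.65, GLI3 with 2.29 ± 0.064, GLI2 with 2.26 ± 0.24, PTCH1 with 1.21 ± 0.30, GLI1 with 0.118 ± 0.0041 and GAS1 with 0.0272 ± 0.00095 CPM per kilobase (SD, n = 2). The ranges of SMO, GLI3 and GLI2 overlapped, so their order in control cells is not resolved, while the other neighbours did not overlap. In knockdown cells SUFU was at 7.60 ± 0.053 and GLI3 followed at 6.11 ± 0.18 CPM per kilobase, ahead of SMO with 2.77 ± 0.50 and GLI2 with 2.30 ± 0.34, whose ranges overlapped. With the joined length of all annotated exons instead, a choice made after the counts were seen, GLI3 stood at 1.39 in control, below GLI2 at 2.09, and at 3.72 in knockdown cells, above GLI2 at 2.13.

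Ratios of GLI3 to GLI2, SUFU and PTCH1, none of which was called, mostly restate the rise of GLI3. The ratio of GLI3 to GLI2 per kilobase was 0.962 and 1.07 in the control libraries and 2.35 and 3.03 in the knockdown libraries. The ratio of GLI3 to SUFU was 0.287 and 0.237 in control and 0.783 and 0.825 in knockdown libraries. The ratio of GLI3 to PTCH1 was 1.65 and 2.25 in control and 5.39 and 7.63 in knockdown libraries. The groups did not overlap in these 3 ratios, and for each a two-sided exact permutation test gave p = 0.333, the smallest that 2 libraries against 2 allow.

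**Figure D4:**
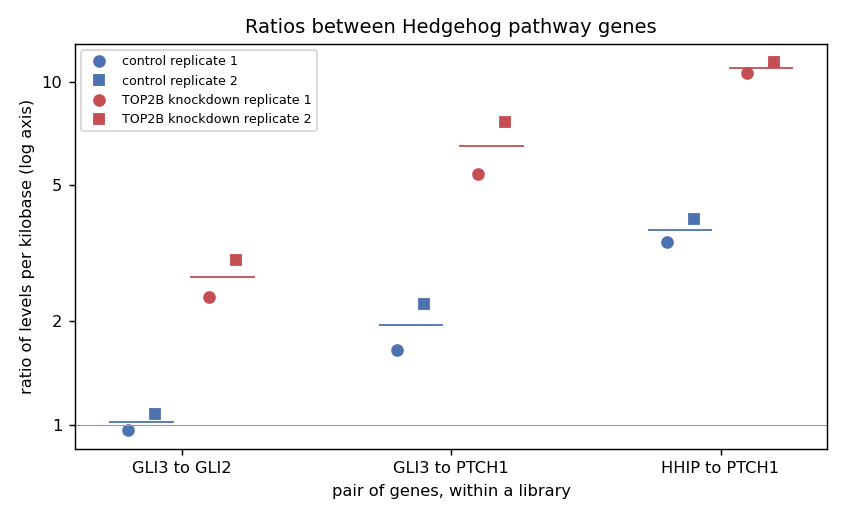
Ratios of levels per kilobase between pairs of genes within each library (log y axis), with circles for replicate 1, squares for replicate 2, blue for control, red for TOP2B knockdown and lines for group means. The ratio of GLI3 to GLI2 lies near 1 in control and between 2.35 and 3.03 in knockdown libraries.

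Beyond these members, 52 further pathway genes were listed, of which 44 were tested. Of these, 6 were called higher and 2 lower, together 18.2% beside 10.8% of all tested genes, and 36 were not called. Their median log2 fold change was 0.015. The ligand genes SHH, IHH and DHH had at most 2 reads in any library, so that none could be tested and no change in ligand transcripts was detectable at this depth.

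HHIP (chromosome 4 from 144646156 to 144745271), a surface protein that binds Hedgehog ligands without signalling and is itself a GLI target, rose most in this list. It had 48.1 and 39.3 CPM in control and 116.7 and 92.7 CPM in knockdown replicates. The lower knockdown value was well above the higher control value. The log2 fold change was 1.26 (standard error 0.15, adjusted p = 0.00152, edgeR) and ranged from 1.09 to 1.43 in fits without one library. Antisense genes cover 8.32% of its exon bases, and whether reads were counted by strand is unknown. Of the other classical targets, PTCH1 and GLI1 were not called. Whether the change of GLI1 differed from that of HHIP was not tested. PTCH1 and HHIP differed in their changes in the main fit, where their 95% intervals, not adjusted for the number of genes, did not overlap. The log2 fold change had an interval of 0.92 to 1.60 for HHIP and of -0.81 to 0.16 for PTCH1. The permutation test of their ratio, given under the other observations, cannot add to this. With 2 libraries against 2 it allows no exact p below 0.333. The ligand-binding co-receptors BOC and CDON had log2 fold changes of -0.38 (adjusted p = 0.166) and -0.29 (adjusted p = 0.427), neither past the threshold, and CDON moved to -0.033 without control replicate 1.

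On the ligand-producing side, DISP2, a relative of the ligand exporter DISP1, fell. It had 12.5 and 13.6 CPM in control and 6.32 and 4.85 CPM in knockdown replicates (log2 fold change -1.22, standard error 0.18, adjusted p = 0.00338, edgeR). It was the sole gene called among the 4 tested genes of ligand production and release (25%, beside 10.8% of all tested genes). With so few genes, this share says little about the group.

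KIF7, the ciliary kinesin that organizes GLI and SUFU at the cilium tip, had 8.47 and 8.94 CPM in control and 6.88 and 5.05 CPM in knockdown replicates, which did not pass the threshold (log2 fold change -0.54, adjusted p = 0.11, edgeR). Exons of TICRR on the opposite strand cover 10.8% of the exon bases of KIF7.

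Of the 16 kinase and ubiquitin ligase genes, 3 were called, where 10.8% of all tested genes were. BTRC, which encodes the adaptor that recognizes phosphorylated GLI3 and GLI2, as well as other proteins such as beta-catenin, fell from 61.2 and 65.5 CPM in control to 35.9 and 35.4 CPM in knockdown replicates. Its log2 fold change was -0.83 (standard error 0.12, adjusted p = 0.00278, edgeR), and no exon base is shared with another gene in GENCODE v44. ULK3, a kinase that acts on GLI proteins, rose from 18.1 and 15.7 to 31.3 and 27.3 CPM (log2 fold change 0.79, adjusted p = 0.00777). GRK2, a kinase of many receptors that also acts in SMO signalling, rose from 43.5 and 42.0 to 67.5 and 64.6 CPM (log2 fold change 0.63, adjusted p = 0.00878).

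Of 13 tested genes reported as Hedgehog targets in other tissues, 2 were called, both higher, a number close to the 10.8% called over all tested genes. VEGFA, an angiogenic growth factor with many other regulators, had 214.2 and 163.2 CPM in control and 302.3 and 316.1 CPM in knockdown replicates (log2 fold change 0.71, adjusted p = 0.0182, edgeR), and it was no longer called without control replicate 2 (0.54, adjusted p = 0.154). BCL2, an inhibitor of apoptosis, had 15.5 and 13.1 CPM in control and 23.5 and 19.9 CPM in knockdown replicates (log2 fold change 0.60, adjusted p = 0.0353). It was no longer called without control replicate 2 (0.49, adjusted p = 0.159) or without knockdown replicate 1 (0.48, adjusted p = 0.171).

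The genes whose pattern over the 4 libraries was most like that of GLI3 were MPRIP, STK3 and INTS14, at Euclidean distances of 0.028, 0.049 and 0.092 between centred log2 CPM values, among 13326 other genes that averaged 1 CPM or more. MPRIP had 148.3 and 140.3 CPM in control and 383.0 and 392.2 CPM in knockdown libraries. With 4 libraries in 2 groups, this likeness mostly restates a change of the same size with close replicates.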

How the data were processed

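Gene counts of 4 RPE1 SunTag libraries were used, 2 from control and 2 from TOP2B knockdown cells (TruSeq RNA LT kit, 65-bp single-end reads). The authors checked reads with FastQC 0.11.6, aligned them to GRCh38 with STAR 2.5.4a and deposited raw counts per Gencode v24 gene, without normalization. Each column occurs again with identical values, and these 4 copies were not used. Column names say stranded and paired-end, unlike the methods, and whether counting used strand is not given in the sources used here.

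A gene was tested when 2 or more libraries had 10 or more counts, with edgeR 4.0.16 in R 4.3.3 (glmQLFit and glmQLFTest, TMM, Benjamini-Hochberg adjustment over all genes, threshold 0.05). With 2 replicates per group, p-values rest on a spread shared between genes, and intervals cover these libraries only. Symbols, positions and lengths came from GENCODE v44, which held 98.9% of tested genes. The members, lists and the word GCAACC were chosen with earlier results of these data known. Named were the members, TOP2B, called genes of the pathway list, 8 further pathway genes whatever their value, and the 3 genes most like the member with the smallest adjusted p. Of the genes under this rule, 2 are not reported here. HHIP-AS1 and the names of the proliferation genes were added after their values were seen. Alternatives were DESeq2 1.42.0, other scalings and filters, a replicate block and fits without each library.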

Additional observations from a re-analysis of the deposited data

How the results depend on the processing

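GLI3 was the one member called under each of the other scalings, filters and tests, with a log2 fold change between 1.40 and 1.42 and an adjusted p of at most 0.0025, and in each fit without one library. With the replicate block (replicate number as a term), 3440 genes were called higher and 3346 lower, 3 members were called instead of 1, and 21 further pathway genes instead of 8. The added members were PTCH1 (-0.32, adjusted p = 0.0295) and SUFU (-0.21, adjusted p = 0.0247), and BOC (-0.38, adjusted p = 0.000706) and KIF7 (-0.54, adjusted p = 0.00659) were called as well. Same-numbered libraries deviated together (Pearson's r of 0.479 across genes), but no label says what a number stands for and there are only 2 pairs, so the block was not used. Without a filter on low counts, 985 genes were called lower. Without one library, the counts ranged from 708 to 1003 genes called higher, 452 to 535 lower and 6 to 9 further pathway genes. SMO turned sign with the size factors of DESeq2 (-0.0011) and with its Wald test (-0.0091), and in fits without one library it ranged from -0.21 to 0.27. It was below 0 without the second control or the first knockdown library, as was GLI2, which ranged from -0.126 to 0.18. For both genes these were the lower control and the higher knockdown library, so that leaving either out lowers the fold change. Why the replicates differed was not tested. With genes under a mean of 100 counts removed, BCL2 had an adjusted p of 0.0501. The depth limits GLI1 and GAS1, with 12 reads or fewer in any library.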

Other observations

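HHIP-AS1 (antisense to HHIP, chosen after its values were seen) had 113 and 124 reads in control and 222 and 235 reads in knockdown libraries, and its log2 fold change was 1.12 (standard error 0.18, adjusted p = 0.00439, edgeR), higher in 2 of 2 knockdown libraries. HHIP and HHIP-AS1 share exon bases, and without a stated strand setting their reads cannot be assigned with certainty. The ratio of HHIP to PTCH1 per kilobase was 3.42 and 3.97 in control and 10.6 and 11.4 in knockdown libraries (two-sided exact permutation p = 0.333, the smallest possible here).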
